A study of Mus musculus with 3 samples.

Results

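The 10 genes described here belong to tumor necrosis factor signalling and were followed in macrophages sorted from mouse lung: the ligands Tnf, Tnfsf9, Tnfsf10, Tnfsf12 and Tnfsf13b, the receptors Tnfrsf1a and Tnfrsf1b, and the response genes Tnfaip2, Traf1 and Birc3. They were taken by gene symbol, and all 10 of 10 had a value in every library, out of 12880 genes with a value in any library. Bulk RNA was sequenced from a single library for each of 3 times, 0, 4 and 24 h. The mice were LysM-GFP animals on a C57BL/6 background aged 6 to 8 weeks, in which green fluorescent protein is made from the lysozyme M locus, a myeloid promoter. Lung injury was set off by nebulized lipopolysaccharide (LPS), the bacterial product sensed by TLR4, from a saline solution of 1 mg/ml. The samples were digested for 50 min at 37 °C, the same at each time, and what this step did to the levels was not tested. The sort kept GFP+ CD64+ cells without Ly6g, a neutrophil antigen, and the tables' headings also name CD11b. The treatment text is the same for the 3 samples, so the labels do not say whether the mice at 0 h inhaled LPS, and neither the number of animals behind a library nor any pooling is stated.

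TNF is made as a membrane protein, cut loose at the cell surface, and bound by TNFR1, present on most cells, and TNFR2, mainly on leukocytes. TNFR1 recruits the adaptor TRADD, the kinase RIPK1 and ubiquitin ligases of the cIAP family, and the complex either turns on NF-kappaB or, when that arm is blocked, cell death. In lung macrophages TNF is known as an early cytokine after LPS, and NF-kappaB drives both Tnf and genes that feed back on the pathway, among them Birc3, Traf1 and Tnfaip3.

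The libraries held 20379236 to 25135476 reads in genes. Normalized counts are whole reads divided by a size factor for each library. Folds are ratios of normalized counts with a 95% counting interval (exact Clopper-Pearson), which leaves out the spread between animals, and since no time had a replicate none of the folds below was tested. A gene is called past 2-fold when its ratio is at least 2 in either direction. The libraries differed in ways other than time. Xist had 13705 reads at 0 h against 4 at 4 h and 1 at 24 h, and the Y-linked Ddx3y had 4, 3994 and 2357, so sex and time cannot be told apart in the comparisons with 0 h. Of 9 classical monocyte markers, 8 were past 2-fold higher at 4 h than at 0 h and 0 lower, and at 24 h 7 were higher than at 0 h and 1 lower. Their summed normalized counts were 136304, 530464 and 104539 at 0, 4 and 24 h, of which Fn1, the 1 lower marker at 24 h, made up 87223, 131482 and 25383. Alveolar macrophage markers were past 2-fold lower at 4 h than at 0 h for 10 of 12, with sums of 755394, 292663 and 426125. Chil3 alone made up 601110, 209378 and 310123 of these sums. The other 2 were Marco, with 12151, 15307 and 15372 normalized counts, and Car4, with 21101, 33512 and 26902. At 24 h 1 of the 12 was past 2-fold lower than at 0 h and 0 higher. Of 13 neutrophil markers 9 had a value at both 0 h and 4 h, and all 9 were past 2-fold higher at 4 h. At 24 h 5 of these were past 2-fold higher than at 0 h and 0 lower. The neutrophil marker sums were 5015, 39632 and 8057, while Ly6g, Elane and Mpo had no value. From 4 h to 24 h, 8 of the monocyte markers were lower and 6 of the alveolar macrophage markers higher. The part of these shifts in the results below was not tested, and in sorted bulk RNA fewer cells of a type and less RNA per cell cannot be told apart. Of 9 markers shared by macrophages, 3 were past 2-fold higher at 4 h than at 0 h (Itgam with 7235, 33421 and 7385 normalized counts, Ptprc with 23843, 73267 and 34677 and Fcgr1, the gene of the sorted antigen CD64, with 2479, 7237 and 2887) and 1 lower (Mertk with 10552, 1673 and 3194). Csf1r, Cd68, Adgre1 and Spi1 were past 2-fold in neither direction there, Csf1r with 29976, 40025 and 29673. Lyz2, the gene at the locus of the GFP reporter, had 43, 16 and 21 reads.

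Tnf was most abundant at 0 h and lower at each later time. The cytokine's gene (chromosome 17, 35199367 to 35202007, RefSeq on GRCm38.p6, the assembly of mm10) had 30054, 10411 and 3270.4 normalized counts over the 3 times in order. The 0 h library was the highest and the 24 h library the lowest, and their counting intervals do not overlap (29727 to 30384, 10187 to 10639 and 3169.6 to 3374). Relative to 0 h, Tnf was 2.89-fold lower (2.82 to 2.96) at 4 h and 9.19-fold lower (8.89 to 9.50) at 24 h, and from 4 h to 24 h it was 3.18-fold lower (3.06 to 3.31). In the authors' deposited table of 24 h against 0 h, Tnf has a log2 fold change of -1.63 and an unadjusted p-value of 0.00159. After Benjamini-Hochberg adjustment of the deposited DESeq2 p-values over all genes none was below 0.05 in any table, the lowest being 0.592. At an unadjusted p below 0.05 there were 646 of 12512 genes for 4 h over 0 h, 399 of 12618 for 24 h over 0 h and 558 of 12578 for 24 h over 4 h, with 2, 3 and 3 of the 10 members among them.

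The sequences before and behind the coding part of Tnf are shown because its transcript is known for fast control at both ends. The 250 bases before the start site of Tnf (chr17:35202008-35202257, minus strand, RefSeq, GRCm38.p6) hold 1 TATA box motif, TATAAA, given in capitals, which begins 29 bases before the start.
Tnf: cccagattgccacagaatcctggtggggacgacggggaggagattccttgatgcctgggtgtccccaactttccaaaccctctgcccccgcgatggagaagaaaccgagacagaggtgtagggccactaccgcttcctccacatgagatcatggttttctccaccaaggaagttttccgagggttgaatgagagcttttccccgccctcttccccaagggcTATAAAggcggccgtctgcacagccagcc
TATAAA on either strand was in 12.4% of 32851 such windows of all promoters, and Tnf was the 1 member among the 8 members with a window that had it. The NF-kappaB motif GGG, any 2 bases and TTTCC, searched on both strands, was in 1.41% of all windows and in none of these 8, which says only that these letters are not in this stretch. Tnfsf9 and Tnfsf12 had no window and were not searched.

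The 3′ untranslated region of Tnf (GENCODE vM21) carries an AU-rich element, the type of site through which mRNA-binding proteins such as tristetraprolin shorten the life of a transcript. The motif TTATTTATT, counted with overlaps, occurred 5 times in its 764 bases. Bases 437 to 466 after the stop codon are shown, with the overlapping copies in this stretch in capitals.
Tnf: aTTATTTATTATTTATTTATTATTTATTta
The motif was in 6.92% of the 3′ untranslated regions of 20609 coding genes. Among the 10 members it was found besides Tnf in Birc3 and Tnfsf13b, with 1 copy each. Tnfsf9, Tnfsf10, Tnfsf12, Tnfrsf1a, Tnfrsf1b, Tnfaip2 and Traf1 had none. The 3 genes with the motif did not share a time course, as Birc3 was highest at 4 h and Tnfsf13b lowest there.

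**Figure D1:**
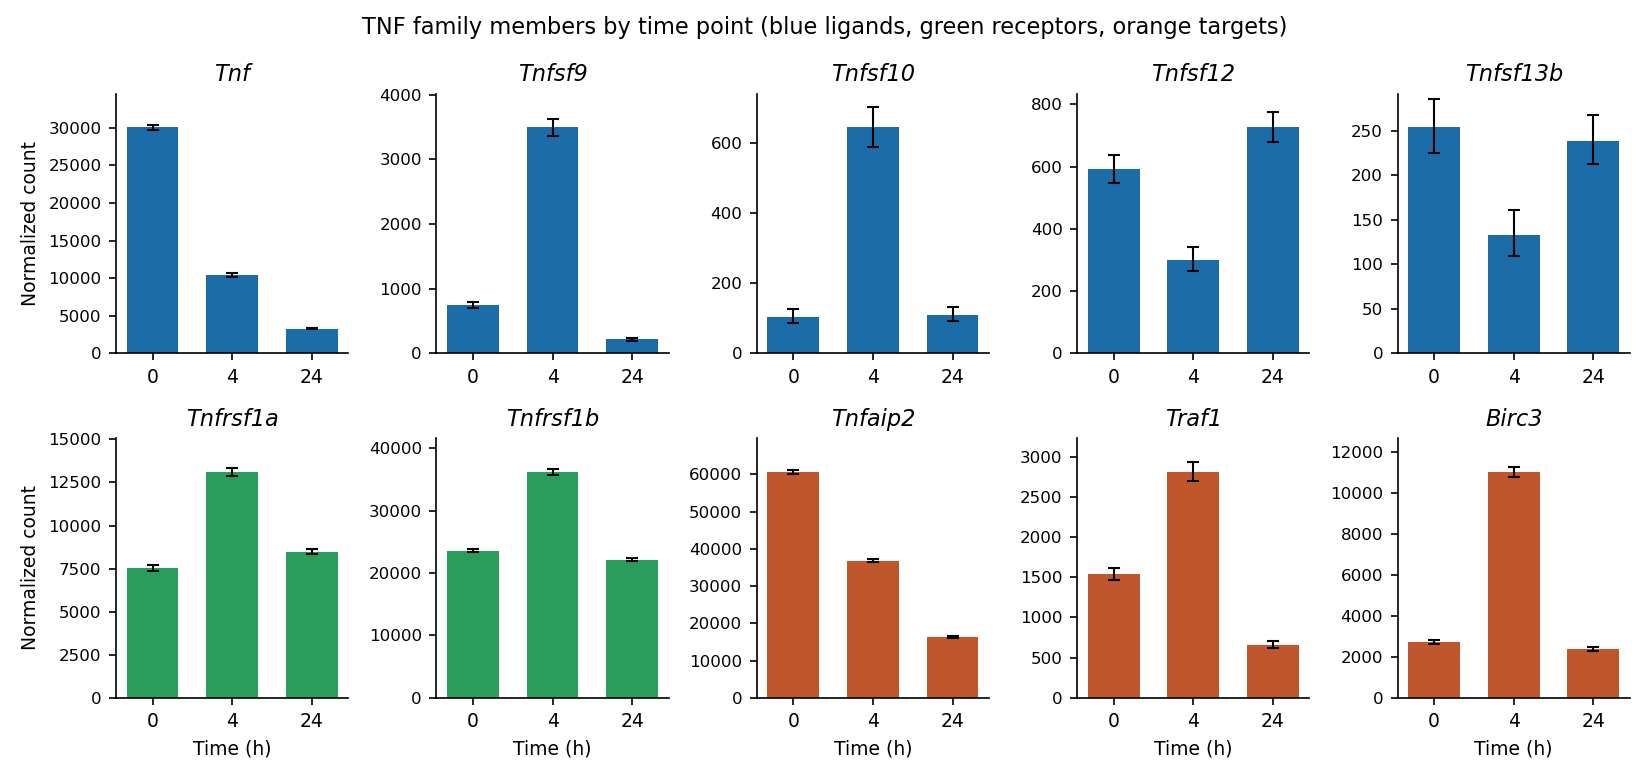
Normalized counts (y axis, linear from 0) of each of the 10 genes in the single library at 0, 4 and 24 h (x axis), with bars for the level and error lines for the 95% Poisson counting interval. Tnf and Tnfaip2 step down from 0 to 24 h, 6 genes are highest at 4 h, and Tnfsf12 and Tnfsf13b are lowest at 4 h.

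The other ligands split into a pair that was highest at 4 h and a pair that was lowest there. Tnfsf9, the ligand of the co-stimulatory receptor 4-1BB (chromosome 17, 57105287 to 57107758), had 743, 3495 and 214 normalized counts. Its 4 h level was 4.70-fold higher (4.34 to 5.09) than at 0 h, and its 24 h level was 16.4-fold lower (14.4 to 18.6) than at 4 h and 3.48-fold lower (3.02 to 4.02) than at 0 h. It overlaps Gm11110, a gene on the other strand, and whether reads were counted by strand is not given in the sources used here.

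Tnfsf10, which encodes TRAIL, a ligand of death receptors (chromosome 3, 27317077 to 27339665), had 104, 644 and 110.1 normalized counts. It was 6.21-fold higher (5.05 to 7.69) at 4 h than at 0 h and 5.84-fold lower (4.82 to 7.12) at 24 h than at 4 h. The 0 h and 24 h libraries did not differ beyond counting error, 24 h being 1.06-fold higher (0.820 to 1.38).

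Tnfsf12, encoding TWEAK, the ligand of Fn14 (chromosome 11, 69686240 to 69696098), had its lowest level at 4 h, with 591, 301 and 726 normalized counts. It was 1.96-fold lower (1.69 to 2.29) at 4 h than at 0 h and 2.41-fold higher (2.09 to 2.80) at 24 h than at 4 h. Tnfsf13, which encodes the B cell factor APRIL and lies next to it on the same strand, was also lowest at 4 h, with 155, 57.1 and 155. The annotation holds a transcript that joins both genes, and how reads were divided between them is unknown.

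Tnfsf13b, encoding the B cell survival factor BAFF (chromosome 8, 10006229 to 10036000), had 254, 133 and 239 normalized counts. It was 1.91-fold lower (1.52 to 2.41) at 4 h than at 0 h and 1.79-fold higher (1.43 to 2.26) at 24 h than at 4 h. Between 0 h and 24 h it did not differ beyond counting error, 24 h being 1.06-fold lower (0.897 to 1.26).

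Both TNF receptors were measured at high levels in every library and neither passed 2-fold in any comparison. Tnfrsf1a, which encodes TNFR1, the receptor with a death domain (chromosome 6, 125349723 to 125362483), had 7526, 13107 and 8483 normalized counts. It was 1.74-fold higher (1.69 to 1.79) at 4 h than at 0 h and 1.55-fold lower (1.50 to 1.59) at 24 h than at 4 h. Tnfrsf1b, encoding TNFR2 (chromosome 4, 145212368 to 145246870), had 23600.2, 36203 and 22121. The 4 h library was again the highest, 1.53-fold higher (1.51 to 1.56) than at 0 h, and the 24 h level was 1.64-fold lower (1.61 to 1.66) than at 4 h. Relative to 0 h, Tnfrsf1a at 24 h was 1.13-fold higher (1.09 to 1.16) and Tnfrsf1b 1.07-fold lower (1.05 to 1.09). The sign of each of these small differences depended on the scaling: centred on the ribosomal proteins Tnfrsf1a had a log2 ratio of -0.40, and scaled by total counts Tnfrsf1b had 0.07.

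Of the 3 response genes, Tnfaip2 was highest at 0 h and Traf1 and Birc3 at 4 h. Tnfaip2, a TNF-inducible protein of the exocyst-like family (chromosome 12, 111442450 to 111455018), followed the order of Tnf, with 60673, 36865 and 16295 normalized counts. Relative to 0 h it was 1.65-fold lower (1.62 to 1.67) at 4 h and 3.72-fold lower (3.66 to 3.78) at 24 h, and from 4 h to 24 h 2.26-fold lower (2.22 to 2.30).

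Traf1, an adaptor of TNFR2 and related receptors (chromosome 2, 34941750 to 34961812), had 1543, 2810.4 and 662, highest at 4 h and lowest at 24 h. It was 1.82-fold higher (1.71 to 1.94) at 4 h than at 0 h, and at 24 h 4.24-fold lower (3.91 to 4.61) than at 4 h and 2.33-fold lower (2.14 to 2.54) than at 0 h.

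Birc3, which encodes the ubiquitin ligase cIAP2 (chromosome 9, 7847468 to 7873205), had 2739.9, 11008 and 2368, highest at 4 h and near its first level at 24 h. It was 4.02-fold higher (3.85 to 4.19) at 4 h than at 0 h and 4.65-fold lower (4.46 to 4.85) at 24 h than at 4 h, with 24 h 1.16-fold lower (1.10 to 1.22) than 0 h. The deposited tables print the same location and description for the rows named Birc2 and Birc3, and RefSeq lists each symbol as a synonym of the other gene, so which of these neighbouring paralogs each row counts is uncertain. The row named Birc2 had 730.3, 1481 and 990.2.

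Tnfsf10 and Birc3, past 2-fold higher at 4 h, are shown by their promoters, since both hold the letters of an interferon response element core, AAAGTGAAA. This motif was picked after the sequences were read. The 250 bases before the start of Tnfsf10 (chr3:27316827-27317076, plus strand) and of Birc3 (chr9:7873171-7873420, minus strand) are given 5′ to 3′ along the gene, with the motif in capitals. For Birc3 the start is that of the RefSeq promoter table, at 7873170, which lies inside the span given above, so the window overlaps the outermost bases of the gene. In Tnfsf10 it lies on the opposite strand and its run begins 53 bases before the start, and in Birc3 it begins 214 bases before that start.
Tnfsf10: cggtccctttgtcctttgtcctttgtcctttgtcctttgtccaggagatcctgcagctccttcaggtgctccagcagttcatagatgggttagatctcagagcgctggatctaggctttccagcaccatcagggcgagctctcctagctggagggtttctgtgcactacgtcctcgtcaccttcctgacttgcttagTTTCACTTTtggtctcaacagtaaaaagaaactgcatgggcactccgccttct
Birc3: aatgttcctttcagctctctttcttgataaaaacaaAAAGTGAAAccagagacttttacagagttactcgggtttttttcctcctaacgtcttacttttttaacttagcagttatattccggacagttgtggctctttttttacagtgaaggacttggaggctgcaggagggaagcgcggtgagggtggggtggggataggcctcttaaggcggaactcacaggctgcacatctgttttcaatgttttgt
On either strand the motif was in 0.511% of 32851 windows and in 3 of the 8 members with a window. The third was Tnfsf13b, which was lower at 4 h, so the letters did not go with 1 direction. Tnfsf9, also past 2-fold higher at 4 h, had no window, so whether its promoter holds the motif is unknown.

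At 4 h against 0 h, 3 of the 10 members were past 2-fold higher (Tnfsf9, Tnfsf10 and Birc3) and 1 lower (Tnf), where 29.6% of 12512 genes were past 2-fold, 15.2% higher and 14.3% lower. The share of members past 2-fold was thus near that of all genes, with a median log2 ratio of 0.71 beside 0.00 for all genes. With TMM scaling the split was 3 and 2 and with total counts 3 and 3, Tnfsf12 and then Tnfsf13b joining the lower side.

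At 24 h against 0 h, 0 members were past 2-fold higher and 4 lower (Tnf, Tnfaip2, Tnfsf9 and Traf1), where 14.0% of 12481 genes were past 2-fold, 4.92% higher and 9.06% lower. The other 6 lay within 1.23-fold of their 0 h level, and the median log2 ratio of the members was -0.15 beside 0.00 for all genes. Scaling by total counts gave a member median of 0.01. Over all genes the split was 614 higher and 1131 lower, 895 and 885 with total counts and 199 and 3145 when centred on the ribosomal proteins, with the same 0 and 4 members.

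At 24 h against 4 h, 1 member was past 2-fold higher (Tnfsf12) and 6 lower (Tnfsf9, Tnfsf10, Birc3, Traf1, Tnf and Tnfaip2), where 32.2% of 12684 genes were past 2-fold, 14.4% higher and 17.9% lower. The median log2 ratio of the members was -1.42, beside 0.00 for all genes. Scaling by total counts gave 2 higher and 5 lower, and centring on the ribosomal proteins gave 0 and 8, with both receptors joining the lower side. Over all genes the split was 1821 higher and 2266 lower, 2936 and 1585 with total counts and 877 and 3948 when centred. The 3 comparisons share libraries, so their counts are not independent. By the authors' deposited shrunken log2 fold changes, 3 members were at least 1 higher and 1 lower for 4 h over 0 h, where 17.9% of all genes were past that size (8.86% higher, 9.02% lower). For 24 h over 0 h the deposited table has 0 members higher and 3 lower beside 2.68% of all genes (0.539% and 2.14%), and for 24 h over 4 h 0 higher and 5 lower beside 17.4% (7.26% and 10.2%).

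**Figure D2:**
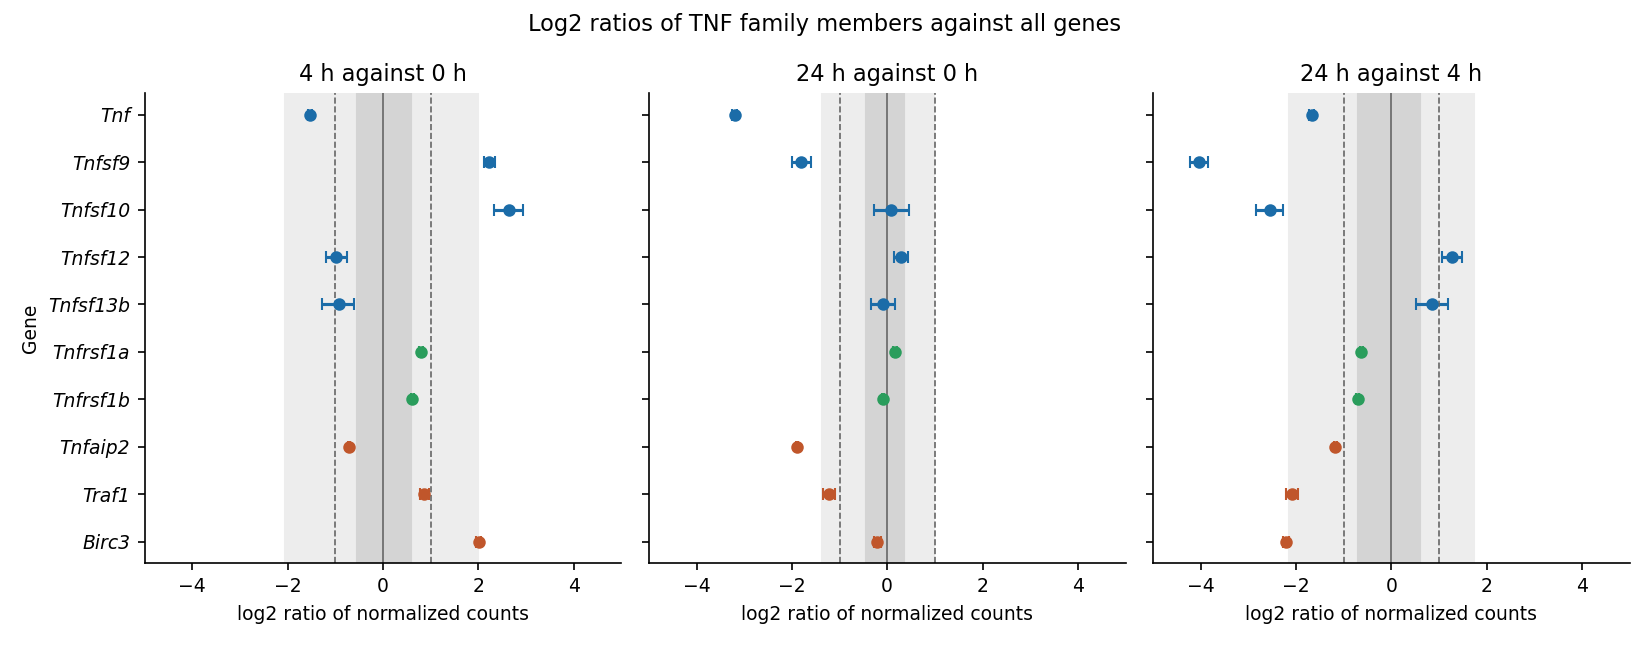
Log2 ratio of normalized counts (x axis) of each member (y axis) in the 3 comparisons, with 95% counting intervals as lines, dashed lines at 2-fold, and bands for the 25th to 75th and the 5th to 95th percentile of genes with a value in all 3 libraries. Tnfsf9, Tnfsf10 and Birc3 lie outside the wider band in both comparisons with the 4 h library, and Tnf, Tnfaip2 and Tnfsf9 lie below it in the remaining one.

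Levels were compared between genes per kilobase of exon (union of GENCODE vM21 exons). At 0 h Tnf was the most abundant of the 10 per length, at 18337 normalized counts per kilobase, ahead of Tnfaip2 at 12174, Tnfrsf1b at 6181 and Tnfrsf1a at 2905. At 4 h the order was Tnfrsf1b (9482), Tnfaip2 (7397), Tnf (6352) and Tnfrsf1a (5059). By 24 h Tnfrsf1b led at 5794 and Tnf was the fourth at 1995, while Tnfrsf1a and Tnfaip2 were level at 3274 and 3269. The ratio of TNFR2 to TNF transcript per length therefore went from 0.337 at 0 h to 1.49 at 4 h and 2.90 at 24 h, and that of TNFR1 to TNF from 0.158 to 0.796 and 1.64. Within the receptor pair the ratio of Tnfrsf1b to Tnfrsf1a varied less, at 2.13, 1.87 and 1.77. These ratios within a library do not depend on the scaling between libraries. Tnf made up 94.7%, 67.6% and 74.0% of the summed per-length level of the 5 member ligands, and 93.7%, 59.1% and 64.3% of that of all 11 ligands with a value. Among the 5, Tnfsf9 was the next at 0 and 4 h (576 and 2709) but not at 24 h, where Tnfsf12 stood at 479 and Tnfsf9 at 166. Tnfsf10 and Tnfsf13b were the lowest members at each time, at 19.7, 122 and 20.9 and at 37.0, 19.4 and 34.8.

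**Figure D3:**
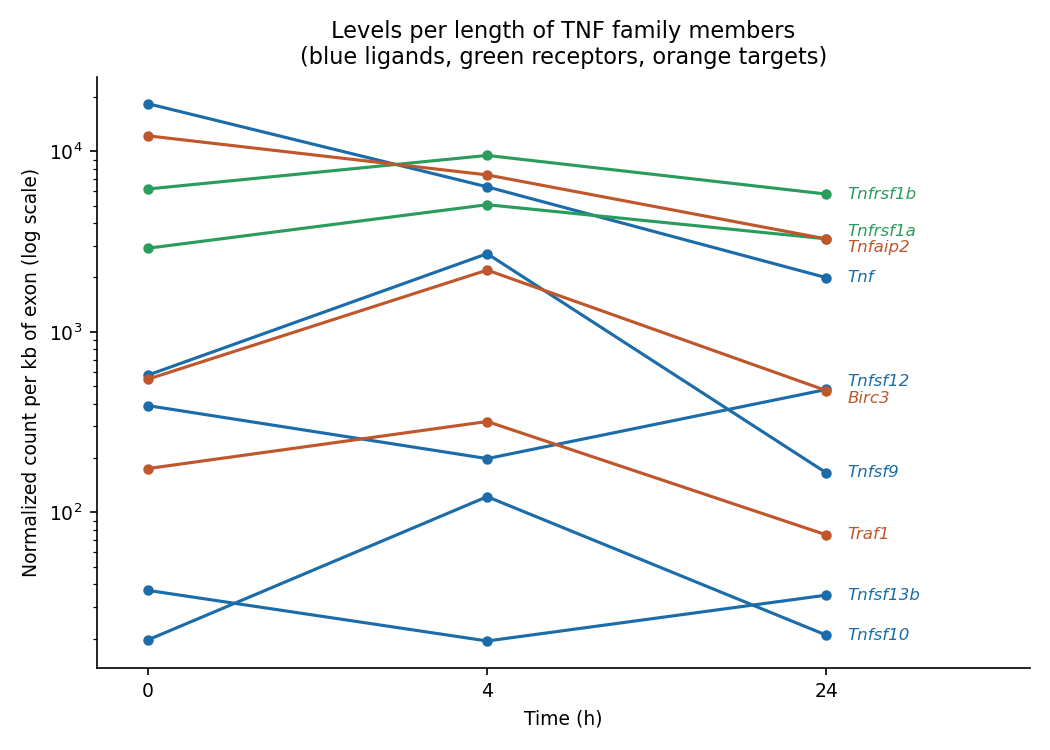
Normalized counts per kilobase of exon (y axis, log scale) of the 10 genes at 0, 4 and 24 h (x axis), 1 library each, with lines joining the values of a gene. The line of Tnf crosses those of Tnfrsf1b and Tnfaip2 between 0 and 4 h and that of Tnfrsf1a between 4 and 24 h.

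The genes closest to Tnf in time course were sought among 3121 abundant genes, those at or above the 75th percentile of mean level, by the distance between log2 profiles over the 3 libraries. They were Flt1 (distance 0.38 log2 units), Cxcl1 (0.54), Rab11fip1 (0.73), Bhlhe40 (0.75) and Rasgef1b (0.80). Flt1, encoding a receptor of vascular endothelial growth factor, had 6327, 2734 and 995 normalized counts. Cxcl1, a neutrophil chemoattractant, had 8557, 5011 and 1206. With 3 points per profile this describes the likeness of these libraries only.

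Of 13 other TNF family ligands, 6 had a value. At 4 h against 0 h 3 of these were past 2-fold higher and 1 lower, with a median log2 ratio of 2.58. The counts were 1 and 1 for 24 h over 0 h (0.38, and -0.19 when centred on the ribosomal proteins). For 24 h over 4 h they were 2 and 4 (-2.93). Past 2-fold in these comparisons, in the same order, were 29.6%, 14.0% and 32.2% of all genes. Tnfsf15, encoding the T cell co-stimulator TL1A, had 20.5, 982 and 12.3 normalized counts, 47.8-fold higher (31.4 to 76.8) at 4 h than at 0 h and 79.7-fold lower (48.0 to 143) at 24 h than at 4 h. Tnfsf14, encoding LIGHT, a ligand of HVEM and the lymphotoxin beta receptor, had 85.0, 1649 and 144, 19.4-fold higher (15.7 to 24.3) at 4 h than at 0 h and 11.5-fold lower (9.79 to 13.5) at 24 h than at 4 h. Both had larger folds between 0 h and 4 h than any of the 10 members. Ltb, a lymphotoxin subunit that shares the Tnf locus, was instead highest at 24 h, with 104, 117 and 347, 3.35-fold higher (2.71 to 4.16) than at 0 h.

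Of 26 other receptors of the family, 18 had a value, with 7 higher and 1 lower for 4 h over 0 h (median log2 ratio 0.45), 1 and 2 for 24 h over 0 h (0.00) and 2 and 7 for 24 h over 4 h (-0.59). Centred on the ribosomal proteins, the counts at 24 h were 1 and 4 relative to 0 h (-0.57) and 1 and 10 relative to 4 h (-1.10). With total counts the latter were 2 and 5 (-0.27). In the main scaling 29.6%, 14.0% and 32.2% of all genes were past 2-fold in these comparisons. Cd40, through which T cells license macrophages, had 355, 3289 and 398 normalized counts, 9.27-fold higher (8.32 to 10.3) at 4 h than at 0 h. Tnfrsf14, encoding HVEM, had 166, 663 and 115, 3.99-fold higher (3.36 to 4.75) at 4 h than at 0 h. Tnfrsf18, encoding GITR, went the other way, with 104, 14.0 and 104, 7.42-fold lower (3.99 to 15.3) at 4 h than at 0 h. Tnfrsf22, a decoy TRAIL receptor, was 2.68-fold lower (2.08 to 3.48) at 24 h than at 0 h.

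Genes that act below the receptors were followed as well. Of 24 genes of the receptor complex and its kinases, 5 were higher and 2 lower for 4 h over 0 h (median 0.58), 0 and 0 for 24 h over 0 h (0.04) and 2 and 6 for 24 h over 4 h (-0.59). The first and last counts are close to the 29.6% and 32.2% of all genes past 2-fold. For 24 h over 0 h, where none of the 24 passed, 14.0% of all genes did (4.92% higher, 9.06% lower). With total counts the first split turned to 2 and 3 and the last to 2 and 3, and centred on the ribosomal proteins the second was 0 and 5 (median -0.53) and the last 1 and 14. Tank, a TRAF-binding regulator, was 2.60-fold higher (2.45 to 2.76) at 4 h than at 0 h and Xiap, an inhibitor of caspases, 2.41-fold higher (2.29 to 2.53). On the lower side at 4 h, Traf4 was 2.06-fold lower (1.39 to 3.12) and Traip, a ubiquitin ligase, 4.60-fold lower (2.48 to 9.29). Both rest on few reads, 98, 35 and 83 for Traf4 and 75, 12 and 90 for Traip at 0, 4 and 24 h. Tradd, the adaptor of TNFR1, had 719, 366 and 976, and was 2.67-fold higher (2.35 to 3.05) at 24 h than at 4 h. Traf6, a ligase of TLR and CD40 signalling, was 3.37-fold lower (3.12 to 3.64) at 24 h than at 4 h. Ikbkb, a kinase of I-kappaB, had 5590.0, 9468 and 6088.

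Of 8 genes of the death-inducing complex, 3 were higher and 0 lower for 4 h over 0 h (median 0.45), 0 and 1 for 24 h over 0 h (-0.02, and 0.15 with total counts) and 0 and 2 for 24 h over 4 h (-0.42). The last was 1 and 2 (-0.10) with total counts and 0 and 4 (-0.93) when centred on the ribosomal proteins. Of all genes, 29.6%, 14.0% and 32.2% were past 2-fold in these comparisons in the main scaling. Mlkl, the executor of necroptosis, was 2.65-fold higher (2.35 to 2.99) at 4 h than at 0 h and Bid, a substrate of caspase-8, 2.41-fold higher (2.17 to 2.69). Cflar, encoding c-FLIP, the inhibitor of caspase-8, had 5686, 13501 and 1791 normalized counts and was past 2-fold in all 3 comparisons. At 24 h it was 7.54-fold lower (7.20 to 7.90) than at 4 h and 3.17-fold lower (3.02 to 3.33) than at 0 h.

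A list of 21 genes outside the members was drawn up as TNF-induced. It also holds Tnfaip8l1, Tnfaip8l2 and Tnfaip8l3, and whether TNF induces its genes was not tested. Of the 21, 8 were higher and 0 lower for 4 h over 0 h (median 0.76). The counts were 0 and 6 for 24 h over 0 h (-0.53) and 1 and 14 for 24 h over 4 h (-2.04). When centred on the ribosomal proteins the second split was 0 and 12 (-1.09) and the last 0 and 16 (-2.54). With total counts the splits were 6 and 0 (0.60), 0 and 5 (-0.36) and 1 and 14 (-1.71). Over all genes in the main scaling, 29.6%, 14.0% and 32.2% were past 2-fold in these comparisons. The higher side held 15.2%, 4.92% and 14.4% of all genes and the lower side 14.3%, 9.06% and 17.9%. The highest level was the one at 4 h for 18 of the list's 21 genes and for 6 of the 10 members, where 40.4% of 12481 genes were highest at 4 h. Tnfaip6, a hyaluronan-binding protein, had 71.9, 1634 and 50.9 normalized counts, 22.7-fold higher (18.0 to 29.0) at 4 h than at 0 h and 32.1-fold lower (24.8 to 42.1) at 24 h than at 4 h. Tnfaip3, the feedback deubiquitinase A20, had 35053, 49019 and 6912, 7.09-fold lower (6.93 to 7.26) at 24 h than at 4 h and 5.07-fold lower (4.95 to 5.19) than at 0 h. Bcl3, a nuclear I-kappaB protein, had 909, 5671 and 859. Vcam1, an adhesion molecule, was 3.54-fold lower (2.80 to 4.50) at 24 h than at 0 h. Tnfaip8l2, a brake on TLR signalling, was the 1 gene past 2-fold higher at 24 h than at 4 h, with 1736, 1036 and 2444, a call lost when centred on the ribosomal proteins (log2 ratio 0.74) and by the authors' deposited value (0.97). Bcl2a1a, Bcl2a1b and Bcl2a1d in this list are near-identical copies, and the split of reads between them is uncertain.

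Of 9 genes that cut ligands and receptors from the membrane or control that step, 2 were higher and 0 lower for 4 h over 0 h (median 0.30), 0 and 0 for 24 h over 0 h (-0.14, and 0.03 with total counts) and 0 and 3 for 24 h over 4 h (-0.67). Centring on the ribosomal proteins gave 0 and 3 (-0.71) and 0 and 6 (-1.17) for these last comparisons. The 2 higher ones were Timp3, the inhibitor of the TNF-cutting protease ADAM17, with 90.6, 299.6 and 89.6 normalized counts, and Sppl2a, an intramembrane protease that acts on the TNF stub, with 6402, 16342 and 6032. Timp3 was 3.31-fold higher (2.60 to 4.23) at 4 h than at 0 h and Sppl2a 2.55-fold higher (2.48 to 2.63). Adam17 itself, named after its values were seen, had 6177, 9727 and 5606 and was past 2-fold in no comparison. Of all genes, 29.6% were past 2-fold for 4 h over 0 h, 14.0% for 24 h over 0 h and 32.2% for 24 h over 4 h.

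**Figure D4:**
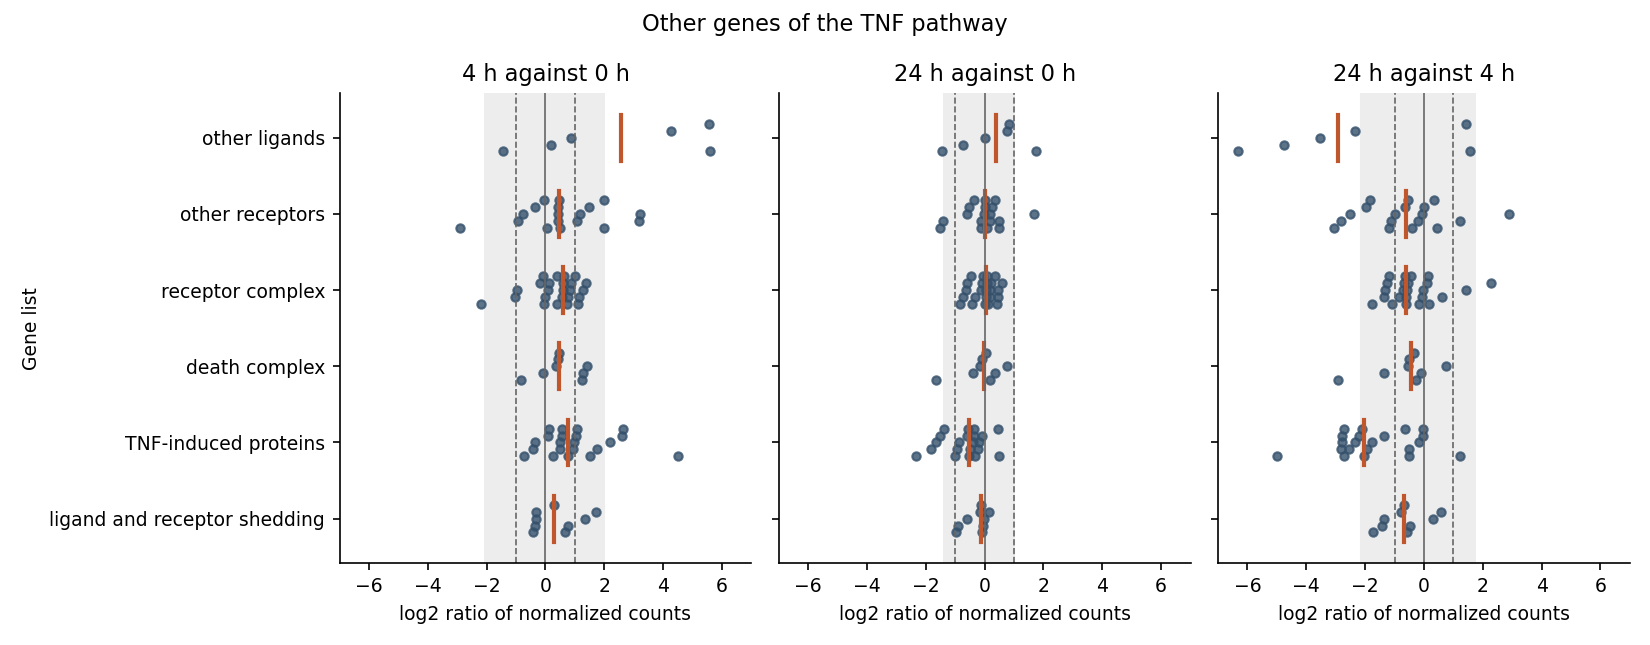
Log2 ratio of normalized counts (x axis) of every measured gene (point) in 6 lists of the TNF pathway (y axis) in the 3 comparisons, with vertical bars for list medians, dashed lines at 2-fold and a band for the 5th to 95th percentile of genes with a value in all 3 libraries. The genes listed as TNF-induced have medians of 0.76, -0.53 and -2.04 in the panels from left to right.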

How the data were processed

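RNA sequencing of sorted lung macrophages gave 1 library at each of 0, 4 and 24 h, with the time read from the labels. The authors deposited 3 tables, each of 2 libraries. Per the submitters' processing notes DESeq2 and mm10 were used. Aligner, counter, annotation and strand setting: not given in the sources used here. The deposited signal values are counts divided by a size factor fitted in each pair, listed where the pair's mean is above 10, and 100% of them were whole multiples of the smallest step (tolerance 0.001 reads), so whole reads were recovered. The deposited log2 fold changes are smaller in size than plain log2 ratios (shrunken), and the deposited p-values are unadjusted. No count model was fitted, since 1 library per time leaves no spread to estimate.

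In the table of 24 h against 0 h the first column is headed 4 h. For 12310 of 12310 genes found in both, its reads equalled those of the 0 h library, against 0.530% of 12453 for 4 h. That 1 column was therefore assigned to no sample and served for this comparison alone. A total of 20 repeated rows were dropped. Levels are reads over median-of-ratios size factors (1.07, 0.788 and 1.22) from 12481 genes with a value in every library. A library with 0 reads was set to 3 reads in ratios. Intervals cover counting error only: without molecular identifiers, reads may be copies of one another. Scripts ran in Python 3.11.15 with scipy 1.17.1 and were tested on simulated counts. edgeR 4.0.16 gave TMM factors.

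The members, the 6 pathway lists and the marker lists were chosen with earlier results of these data known. Of 280 list entries 245 were found by symbol and 9 by a synonym whose location fits, and 26 had no match. Marker lists for T, B, NK, dendritic, epithelial, endothelial and fibroblast cells had summed normalized counts at 0, 4 and 24 h of 6721, 334 and 4366 (T, of which Cd2 made up 6577, 231 and 4283), 38.3, 114 and 282 (B), 128, 460 and 278 (NK), 799, 1960 and 1177 (dendritic), 15406, 16739 and 15557 (epithelial), 4165, 2164 and 2974 (endothelial) and 261, 531 and 384 (fibroblast). Vwf made up 3292, 564 and 1533 of the endothelial sums. Of the 7 endothelial markers, 6 had a higher level at 4 h than at 0 h and 1 a lower. Of the 9 epithelial markers, 4 were past 2-fold higher at 4 h than at 0 h and 2 lower. Among them Scgb1a1 had 90.6, 3977 and 105 normalized counts and Epcam 953, 159 and 334. The 9 pan-macrophage markers summed to 117393, 191137 and 115984. Named genes are the members, the 2 furthest up and down past 2-fold in each list and comparison whose mean reaches 50 normalized counts (or the most abundant where none passed), and the 5 genes nearest to Tnf by log2(normalized count + 1). Promoters come from RefSeq (GRCm38.p6), and exon lengths and untranslated regions from GENCODE vM21.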

Additional observations from a re-analysis of the deposited data

How the results depend on the processing

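The number of members past 2-fold stayed within 1.5 times its value under all 7 alternatives: 4 to 6 for 4 h over 0 h, 3 to 4 for 24 h over 0 h and 5 to 8 for 24 h over 4 h. The number of all genes past 2-fold moved further. By the authors' deposited shrunken log2 fold changes of at least 1 it was 2237 for 4 h over 0 h, 338 for 24 h over 0 h and 2191 for 24 h over 4 h, where plain ratios gave 3700, 1745 and 4087. At 24 h against 0 h it was 3344 when centred on the ribosomal proteins, 989 among genes whose mean reached 100 normalized counts and 905 when the counting interval had to clear 2-fold, and at 24 h against 4 h this last rule gave 2664. Total-count scaling shifted the median log2 ratio of all genes by -0.16, 0.17 and 0.32 in the 3 comparisons, and ribosomal centring by -0.57 for 24 h over 0 h and -0.50 for 24 h over 4 h. Every member past 2-fold kept its sign in the 6 alternatives that give a ratio. Traf1 at 24 h against 0 h missed the threshold with the deposited value (-0.84), as did Tnfaip2 (-0.88) and Tnfsf12 (0.98) at 24 h against 4 h; Tnfaip2 also did so with total counts (-0.85) and Tnfsf12 with ribosomal centring (0.77). At 24 h against 0 h Tnfsf10, Tnfsf12, Tnfsf13b, Tnfrsf1a and Tnfrsf1b, all under 2-fold, each changed sign in 1 alternative. Among the other named genes, besides Tnfaip8l2 above, calls were lost for Tradd (0.91) and Tnfsf13 (0.94) at 24 h over 4 h when centred. Traf4 at 4 h lost its call with a pseudocount of 10 (-0.90). With deposited values Traf4 (-0.73), Bid (0.98), Xiap (0.98), Cflar (0.97) and Traf6 (0.895) lost theirs at 4 h over 0 h. So did Tnfrsf22 (-0.84) at 24 h over 0 h, and Tank (-0.999) and Mlkl (-0.99) at 24 h over 4 h. Traf6 at 4 h over 0 h and Xiap at 24 h over 4 h each lost the call in 2 settings, Xiap at -0.74 with total counts. No paired analysis was possible because each time point has 1 library, and for the same reason no library could be left out. Depth was no limit for the abundant members, while Tnfsf10 and Tnfsf13b rest on 105 to 507 reads. Tnfsf12 had 237 reads at 4 h and Tnfsf9 had 260 at 24 h.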
